A study of Mus musculus with 6 samples.

Results

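The genes described here carry glucose through glycolysis to pyruvate and lactate, through the pentose phosphate branch, and to the entry of pyruvate into mitochondria. They are 39 genes chosen by function: 2 glucose transporters, 13 genes of the preparatory steps of glycolysis, 6 of its payoff steps, 4 of lactate formation and transport, 7 of pyruvate entry and 7 of the pentose phosphate branch. All 39 were listed in the gene tables, among 47643 annotated genes. A mean of at least 1 FPKM (fragments counted per length of transcript and scaled to the size of the library) over the 6 libraries was required for testing, and 38 of the 39 were among the 12113 genes that reached it. Pfkfb2, a bifunctional regulator of phosphofructokinase, did not, with 0.567, 0.908 and 0.591 FPKM in the vehicle libraries and 1.08, 1.16 and 0.587 FPKM in the PGE2 libraries.

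The libraries were made from induced regulatory T cells (iTreg), which are CD4+ T cells driven to express the transcription factor Foxp3 in culture. CD4+ T cells from the spleens of C57BL/6 mice of the genotype Foxp3-DTR/EGFP, whose Foxp3-expressing cells fluoresce green and carry the diphtheria toxin receptor, were stimulated for 2 days through CD3 and CD28 in the presence of TGF-β. They then received Vehicle (DMSO) or 100 nM PGE2 (prostaglandin E2, a lipid mediator sensed by G protein-coupled EP receptors) for 6 h, and Foxp3+ cells were sorted by GFP before RNA extraction, with 3 libraries in each group. Both groups therefore shared the reporter allele, the stimulation, the TGF-β and the sort. The sources used here give neither the number nor the age of the mice. The labels do not say whether libraries of a group came from separate mice or cultures, so the p-values measure the spread between these libraries, which may be technical. In bulk RNA, fewer cells of a type and less RNA per cell cannot be told apart.

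Depth, estimated from the ratio of coverage to FPKM, was 3.996 to 5.45 gigabases of aligned sequence per library. The 6 T cell and Treg markers examined were all present at 1 FPKM or more, with summed levels of 1447 to 1535 FPKM in the vehicle libraries and 1601 to 1677 FPKM in the PGE2 libraries. Of these, Ctla4 was at 191 to 205 FPKM with vehicle and 339 to 351 with PGE2, while Il2ra, the highest, was at 644 to 758 and 620 to 671. Markers of B cells (0 of 4) and of erythroid cells and platelets (0 of 5) did not reach 1 FPKM. In each other list only 1 marker reached 1 FPKM, Cd8b1 at 5.19 FPKM, Cd68 at 3.59, Klrd1 at 2.28 and Pecam1 at 10.6 on average. Cd8a was at 0.598 to 0.868 FPKM. Lyz2, Csf1r, Itgam, Adgre1, Col1a1 and Cdh5 were at no more than 0.236 in any library, with Ncr1, Klrb1c and Col3a1 at 0. The summed NK cell markers, which are Klrd1 alone, were at 0.627 to 2.78 FPKM with vehicle and 2.26 to 4.50 with PGE2. The summed myeloid markers were at 1.87 to 5.22 and 2.74 to 4.30. Whether other cell types were present, and their part in the values below, was not tested.

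Glycolysis splits glucose into pyruvate in the cytosol, with a net yield of ATP and NADH. Pyruvate is either reduced to lactate by lactate dehydrogenase, which regenerates NAD+, and exported with a proton by monocarboxylate transporters, or enters mitochondria and is oxidised by the pyruvate dehydrogenase complex. The pentose phosphate branch takes glucose phosphate aside to make NADPH and ribose phosphate. Activated effector T cells are known for strong aerobic glycolysis, while Foxp3+ regulatory T cells are commonly described as relying more on mitochondrial oxidation.

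The plasma membrane transporters had the 4 smallest p-values of the 38 genes. The monocarboxylate transporter Slc16a3 (MCT4, known for lactate export from glycolytic cells) was 1.87-fold higher with PGE2 (95% interval 1.35 to 2.59, n = 3 each), and Slc16a1 (MCT1, which carries lactate and pyruvate in either direction) was at 0.731 of its vehicle level (0.630 to 0.849). The glucose transporters Slc2a3 (GLUT3) and Slc2a1 (GLUT1) were 1.52-fold (1.27 to 1.83) and 1.30-fold (1.14 to 1.49) higher. Of the 17 glycolytic enzyme genes tested, from hexokinase to lactate dehydrogenase, 16 were higher on average with PGE2, beside 43.3% of all genes tested. Of 7 pentose phosphate genes 6 were lower, where 6863 of all 12113 genes tested were lower. Fold changes and directions are on the log2(FPKM + 1) scale. None of these changes passed the adjusted threshold of 0.05 in the unpaired limma fit, which called 0 of 38 genes higher and 0 lower, and 69 (0.57%) of all genes tested higher and 29 (0.239%) lower. With the replicate number as a block, a fit that called 215 genes (1.77%) higher and 180 (1.49%) lower, 2 of the 38 were higher, Slc2a3 and Slc16a3, and 0 were lower. The pairing by number that this block assumes is uncertain for the first and second libraries.

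Weaker criteria gave the following counts. An unadjusted p under 0.05 was reached by 9 of the 38 with a higher level in PGE2, beside 5.46% of all genes tested, and by 2 with a lower level, beside 7.59%. All 3 PGE2 libraries lay above all 3 vehicle libraries for 11 of the 38, beside 7.81% of all genes tested, and below them for 2, beside 11.9%. In the remaining 25 the groups overlapped. A higher mean with PGE2 was found in 27 of the 38, where 43.3% of all genes tested had one. The median log2 change was 0.14 in the 38 genes and -0.03 over all genes tested. No test was made over the list, since its members were chosen by function and are not independent replicates.

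**Figure D1:**
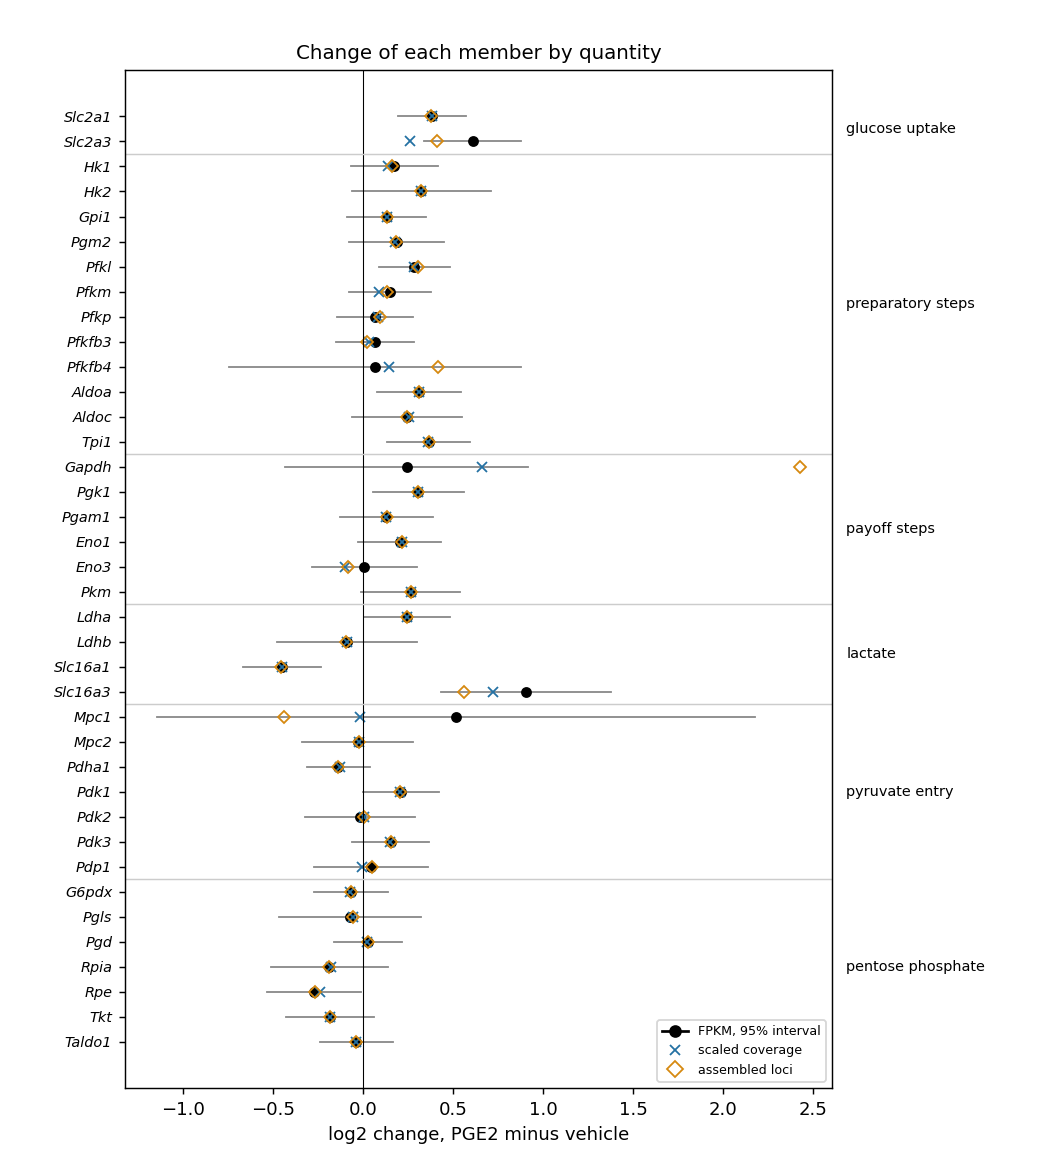
Log2 change with PGE2 against vehicle for the 38 tested genes in pathway order, from FPKM (black points, with 95% confidence intervals from limma), from scaled coverage (crosses) and from assembled loci (diamonds). By FPKM, Slc16a3 at 0.90 lies farthest right and Slc16a1 at -0.45 farthest left, the 3 quantities coincide for most genes, and they lie apart for Gapdh, Mpc1, Slc2a3, Slc16a3 and Pfkfb4.

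Slc2a1 (ENSMUSG00000028645.11, mm10 chromosome 4, 119108711 to 119137983, plus strand) encodes the basal glucose transporter of T cells, which is brought to the surface on activation. Its FPKM values were 43.0, 41.0 and 45.7 in the vehicle libraries and 59.2, 54.9 and 55.7 in the PGE2 libraries. The groups did not overlap, and every PGE2 library was above the highest vehicle library. The means were 43.2 ± 2.35 and 56.6 ± 2.27 FPKM (SD, n = 3 each), a log2 change of 0.38 (SE 0.08, limma adjusted p = 0.095).

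Slc2a3 (ENSMUSG00000003153.10, chromosome 6, 122727809 to 122801640, minus strand) encodes a glucose transporter of high affinity. It was measured at 10.8, 8.76 and 10.9 FPKM with vehicle and at 17.5, 15.7 and 14.6 FPKM with PGE2. The groups again did not overlap. The mean went from 10.1 ± 1.20 to 15.9 ± 1.46 FPKM (SD, n = 3 each), a log2 change of 0.61 (SE 0.11) with a limma adjusted p of 0.0684, or 0.0319 with the replicate block. From the deposited coverage, scaled by depth, the change was 0.26 (limma adjusted p = 0.157), and from the assembled loci that overlap the gene 0.41. Scaled coverage of Slc2a3 was near 1 (0.892, 0.799 and 0.843 with vehicle, 1.40, 1.15 and 1.07 with PGE2), so the pseudocount of 1 shrinks the first of these. Without a pseudocount, an alternative chosen after seeing the data, the log2 differences were 0.66 from FPKM, 0.51 from coverage and 0.43 from loci. The Slc2a3 to Slc2a1 ratio was 0.251, 0.214 and 0.238 with vehicle and 0.296, 0.286 and 0.263 with PGE2, groups that did not overlap. By coverage and by assembled loci they did overlap, with log2 differences of 0.12 and 0.05 in place of 0.27.

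Slc16a3 (ENSMUSG00000025161.16, chromosome 11, 120948480 to 120960868, plus strand) had the largest log2 change of the 38. Its level was 22.7, 19.9 and 32.2 FPKM with vehicle and 41.1, 41.9 and 58.5 FPKM with PGE2. The groups did not overlap, although the third library was the highest in each. The mean was 24.9 ± 6.43 FPKM with vehicle and 47.2 ± 9.79 FPKM with PGE2 (SD, n = 3 each), a log2 change of 0.90 (SE 0.20, 95% interval of the fold 1.35 to 2.59). Its limma adjusted p was 0.106, and 0.00544 with the replicate block. Coverage gave a log2 change of 0.72 (limma adjusted p = 0.0519). The assembled loci gave 0.56 (limma adjusted p = 0.287), with 44.6, 37.8 and 32.8 FPKM against 72.4, 42.5 and 59.4, and there the groups overlapped.

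Slc16a1 (ENSMUSG00000032902.1, chromosome 3, 104638668 to 104658462, plus strand) differed in the other direction. Its values were 12.2, 12.8 and 13.5 FPKM with vehicle and 8.79, 9.92 and 8.68 FPKM with PGE2. All 3 PGE2 libraries were below all 3 vehicle libraries. The mean was 12.8 ± 0.699 FPKM with vehicle and 9.13 ± 0.685 FPKM with PGE2 (SD, n = 3 each), a log2 change of -0.45 (SE 0.09, limma adjusted p = 0.0832, and 0.0503 with the replicate block). Coverage, scaled by depth, gave the same change of -0.45. Slc16a1 has a single annotated transcript, and depth was estimated from such genes. Its scaled coverage therefore repeats its FPKM and is no separate check.

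With one gene higher and the other lower, the ratio of the monocarboxylate transporters was also compared. The Slc16a3 to Slc16a1 FPKM ratio was 1.87, 1.56 and 2.38 in the vehicle libraries and 4.68, 4.23 and 6.74 in the PGE2 libraries. Every PGE2 ratio was above every vehicle ratio, also by coverage and by assembled loci. By FPKM and by coverage this had to follow, since neither gene's groups overlapped and the genes differed in opposite directions. It was not fixed in advance for assembled loci, where the groups of Slc16a3 overlapped. The mean log2 difference was 1.42 from FPKM, 1.26 from coverage and 1.07 from assembled loci. Bsg, the membrane chaperone that both transporters need to reach the cell surface, was at 177 ± 16.2 FPKM with vehicle and 216.0 ± 6.68 FPKM with PGE2 (SD, n = 3 each), a log2 change of 0.29 (limma adjusted p = 0.247).

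**Figure D2:**
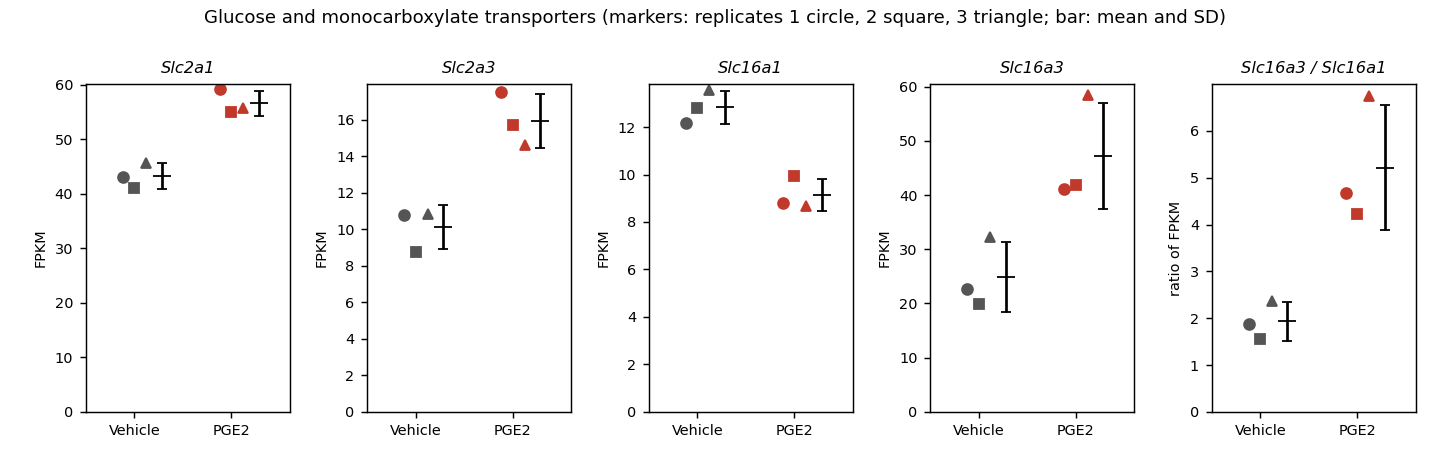
FPKM of the glucose transporters Slc2a1 and Slc2a3 and the monocarboxylate transporters Slc16a1 and Slc16a3 in each library, and the Slc16a3 to Slc16a1 ratio in the last panel, with group means and SD. The PGE2 points lie above the vehicle points for Slc2a1, Slc2a3 and Slc16a3 and below them for Slc16a1, where vehicle libraries sit at 12.2 to 13.5 FPKM and PGE2 libraries at 8.68 to 9.92 FPKM.

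Promoters are printed for 3 of these transporters and for Ldha, the lactate dehydrogenase subunit described further on. They lie along the path from glucose to exported lactate, and their groups did not overlap. The same held for Pfkl, Aldoa, Tpi1, Pgk1 and Eno1, which are not printed, so the printed windows are a selection. Slc2a3 had no promoter entry. Each sequence is from RefSeq, build GRCm38.p6, on the plus strand, and runs from 250 bases before to 50 bases after the annotated start. Capitals mark ACGTG, the core recognised by hypoxia-inducible factors and contained in the E-box CACGTG, and TGACG, the core of the cAMP response element TGACGTCA, on either strand. Slc16a3 lies at chr11:120948817-120949116, Slc16a1 at chr3:104638414-104638713, Slc2a1 at chr4:119108495-119108794 and Ldha, whose other promoter entry is not printed, at chr7:46845554-46845853.
Slc16a3: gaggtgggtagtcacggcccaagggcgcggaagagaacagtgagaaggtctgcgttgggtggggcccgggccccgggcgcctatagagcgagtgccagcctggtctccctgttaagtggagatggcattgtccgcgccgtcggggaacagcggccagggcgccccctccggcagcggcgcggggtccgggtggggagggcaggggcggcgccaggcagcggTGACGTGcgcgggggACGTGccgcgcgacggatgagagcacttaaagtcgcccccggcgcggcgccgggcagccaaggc
Slc16a1: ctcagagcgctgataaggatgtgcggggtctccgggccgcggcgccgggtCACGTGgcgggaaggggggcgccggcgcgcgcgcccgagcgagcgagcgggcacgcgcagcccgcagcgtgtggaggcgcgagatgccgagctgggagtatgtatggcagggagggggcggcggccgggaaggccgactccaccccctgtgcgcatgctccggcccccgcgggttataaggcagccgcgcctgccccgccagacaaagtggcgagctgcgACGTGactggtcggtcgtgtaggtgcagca
Slc2a1: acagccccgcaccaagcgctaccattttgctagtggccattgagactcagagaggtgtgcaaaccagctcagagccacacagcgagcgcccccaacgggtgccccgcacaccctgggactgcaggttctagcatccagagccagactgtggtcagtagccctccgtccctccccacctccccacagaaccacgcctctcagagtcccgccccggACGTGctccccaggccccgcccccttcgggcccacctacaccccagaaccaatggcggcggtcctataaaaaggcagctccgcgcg
Ldha: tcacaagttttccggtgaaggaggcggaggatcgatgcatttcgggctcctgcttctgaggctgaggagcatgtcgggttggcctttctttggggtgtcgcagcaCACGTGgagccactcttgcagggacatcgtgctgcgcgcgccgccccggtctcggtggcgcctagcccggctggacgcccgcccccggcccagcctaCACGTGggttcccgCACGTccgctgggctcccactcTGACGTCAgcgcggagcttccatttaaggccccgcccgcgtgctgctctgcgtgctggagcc

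The Slc16a3 window held a TGACG that overlaps an ACGTG, at position -29 from the start, and another ACGTG at -14. The Slc16a1 window, from the gene that was lower with PGE2, held a CACGTG at -200 and an ACGTG just after the start. Slc2a1 had a single ACGTG, at -36. Ldha held CACGTG at -145 and -48, a further ACGTG match on the minus strand at -34, and the full TGACGTCA at -12. Promoter entries matched 36 of the 39 genes by symbol and position, with 54 promoters in all. ACGTG was found in 22 (40.7%) of these 54, in 18 genes, and in 19.6% of all 32851 promoters of the same length. CACGTG was found in 11.1% of the 54 and 7.15% of all, TGACG in 24.1% and 20.8%, and TGACGTCA in 1.85% and 1.79%. A match is a description of letters in the window, with no adjustment for base composition.

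The preparatory steps trap glucose as a phosphate and split it into triose phosphates. All 12 genes tested there had a higher mean with PGE2, with a median log2 change of 0.18. For 3 of them, Pfkl, Aldoa and Tpi1, the groups did not overlap, beside 7.81% of all genes tested. The same 3 had an unadjusted limma p under 0.05, beside 5.46% of all genes tested. None passed the adjusted threshold.

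Hexokinase traps glucose in the cell, and its Hk1 and Hk2 isoforms were both present. By FPKM Hk1 was the higher, whereas by coverage Hk2 was above Hk1 in every library, with ratios of 1.11 to 1.53, so their order is uncertain. Hk1 was at 63.1, 51.7 and 54.3 FPKM with vehicle and 68.5, 62.5 and 59.7 with PGE2, a log2 change of 0.17. Hk2, the inducible isoform, was at 11.2, 9.64 and 9.52 FPKM with vehicle and 16.3, 12.8 and 10.1 with PGE2, a log2 change of 0.32 (limma adjusted p = 0.482). The groups overlapped for both genes and for the Hk2 to Hk1 ratio, in which the third PGE2 library, at 0.169, was below all 3 vehicle libraries. Gpi1 (glucose phosphate isomerase) and Pgm2 (a phosphoglucomutase, which links glucose phosphate to glycogen) had log2 changes of 0.13 and 0.18.

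Phosphofructokinase makes the committed step, and its subunits are encoded by Pfkl, Pfkm and Pfkp. Pfkl was at 52.8, 47.5 and 48.3 FPKM with vehicle and 62.4, 62.2 and 56.9 FPKM with PGE2. The groups did not overlap, with a log2 change of 0.28 (SE 0.08, unadjusted p = 0.0111, limma adjusted p = 0.208). Pfkp, the highest of the 3 by FPKM but below Pfkl in every library by coverage, was at 68.8, 66.4 and 74.6 FPKM with vehicle and 75.9, 67.8 and 76.1 with PGE2, a log2 change of 0.07 with overlapping groups. By FPKM, Pfkl made up 36.7% to 40.3% of the summed subunit FPKM with vehicle and 39.9% to 44.3% with PGE2, ranges that overlapped. Pfkm had a log2 change of 0.15, and the regulators Pfkfb3 and Pfkfb4, which set the level of the allosteric activator of phosphofructokinase, 0.07 and 0.06. From the assembled loci Pfkfb4 had a log2 change of 0.41.

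Aldolase cleaves the phosphorylated hexose, and Aldoa was the most abundant gene of the preparatory steps. It was at 809, 709 and 740 FPKM with vehicle and 932, 954 and 908 FPKM with PGE2. Every PGE2 library was above every vehicle library, with means of 752.9 ± 51.1 and 931 ± 23.1 FPKM (SD, n = 3 each) and a log2 change of 0.31 (SE 0.10, limma adjusted p = 0.244). Aldoc was at 12.6, 9.54 and 10.4 FPKM with vehicle and 14.8, 12.4 and 11.8 with PGE2, a log2 change of 0.24 with overlapping groups. Tpi1, which interconverts the triose phosphates, had the lowest limma adjusted p of the 17 glycolytic enzymes. It was at 392.03, 345.2 and 400.58 FPKM with vehicle and 474, 481 and 506 FPKM with PGE2, groups that did not overlap. The log2 change of Tpi1 was 0.36 (SE 0.10, limma adjusted p = 0.161, and 0.0895 with the replicate block), a fold of 1.29 with a 95% interval of 1.10 to 1.51.

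The payoff steps turn triose phosphate into pyruvate and recover ATP. All 6 genes had a higher mean log2(FPKM + 1) with PGE2, with a median log2 change of 0.22. For Eno3 the mean FPKM was not higher, at 11.899 with vehicle and 11.892 with PGE2. The groups did not overlap for Pgk1 and Eno1, 2 of the 6, beside 7.81% of all genes tested. Pgk1, which makes the first ATP of the pathway, was at 466, 426 and 522 FPKM with vehicle and 567, 565 and 611 with PGE2, a log2 change of 0.30 (SE 0.11, unadjusted p = 0.0243, limma adjusted p = 0.286). Eno1, the main enolase here, was at 845, 769 and 819 FPKM with vehicle and 897, 967 and 934 with PGE2, a log2 change of 0.20 (SE 0.10, limma adjusted p = 0.45). The muscle enolase Eno3 had overlapping groups and a log2 change of 0.01. It was at 13.9, 10.4 and 11.3 FPKM with vehicle and 10.8, 13.0 and 11.9 with PGE2, and the Eno3 to Eno1 ratio was lower in all 3 PGE2 libraries than in all 3 vehicle libraries, with a log2 difference of -0.20. Pkm, pyruvate kinase, was at 927, 776 and 768 FPKM with vehicle and 1024, 1017 and 921 with PGE2. Its log2 change was 0.26 (limma adjusted p = 0.399), and the groups overlapped because the first vehicle library was just above the third PGE2 library. Pgam1, phosphoglycerate mutase, had a log2 change of 0.13.

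Gapdh (ENSMUSG00000057666.18, chromosome 6, 125161715 to 125166467, minus strand), which oxidises triose phosphate and is often used as a reference gene, was listed far below its neighbours in the pathway. Its own row held 41.4, 37.5 and 69.4 FPKM with vehicle and 42.7, 80.4 and 52.2 FPKM with PGE2. The groups overlapped and the log2 change of 0.24 had an SE of 0.29 (limma adjusted p = 0.812). Of the 50-base words in its longest coding transcript, 82.5% also occur in pseudogenes, 213 in number, and 196 of these are listed in the gene tables. Those pseudogenes held 97.6% to 98.8% of the combined FPKM of Gapdh and its copies, and the highest of them, Gm5559, averaged 360 FPKM.

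With the 196 pseudogenes added, the Gapdh level was 3385, 2769 and 2905 FPKM in the vehicle libraries and 3596, 3456 and 3627 FPKM in the PGE2 libraries. The groups then did not overlap, with means of 3020 ± 324 and 3559 ± 90.9 FPKM (SD, n = 3 each) and a log2 change of 0.24 (limma adjusted p = 0.502). The assembled loci that overlap Gapdh instead gave 41.2, 37.9 and 69.0 FPKM with vehicle and 212, 476 and 175 FPKM with PGE2. In that quantity the log2 change was 2.43 (limma adjusted p = 0.0455), and coverage gave 0.66 (limma adjusted p = 0.345). Why these quantities differ was not tested, and the values of the gene's own row are uncertain. Pgk1 shares 68.0% of its words with 5 pseudogenes and Eno1 72.2% with other genes, Eno1b included. Adding their copies gave log2 changes of 0.31 and 0.20.

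**Figure D3:**
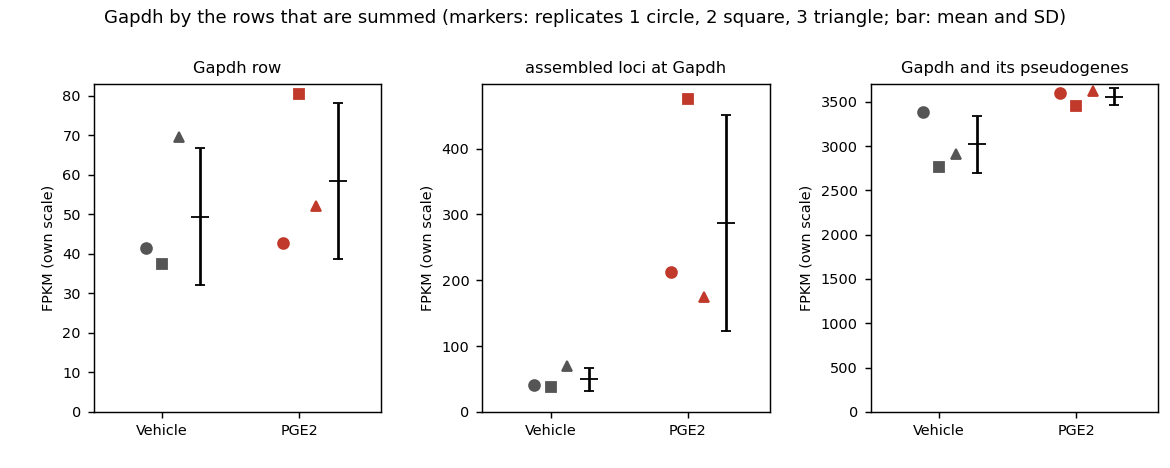
Gapdh in each library in 3 panels with FPKM axes of their own: the gene's row, the assembled loci that overlap it, and the row with 196 near-identical pseudogenes added. Points are libraries and bars are the mean and SD; the summed level is 2769 to 3385 FPKM with vehicle and 3456 to 3627 FPKM with PGE2, while the row lies between 37.5 and 80.4 FPKM.

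Lactate dehydrogenase reduces pyruvate to lactate, and Ldha (ENSMUSG00000063229.14, chromosome 7, 46841475 to 46855627, plus strand) encodes the subunit that favours that direction. Ldha was at 923, 847 and 938 FPKM with vehicle and 1011, 1081 and 1111 FPKM with PGE2. The groups did not overlap, with means of 903 ± 48.9 and 1067 ± 51.4 FPKM (SD, n = 3 each), a log2 change of 0.24 (SE 0.10, unadjusted p = 0.0487) and a limma adjusted p of 0.379. Ldhb, whose subunit favours the return to pyruvate, was at 30.3, 25.6 and 18.6 FPKM with vehicle and 22.3, 24.3 and 21.9 with PGE2, a log2 change of -0.09. The Ldha to Ldhb ratio was 30.5, 33.1 and 50.6 with vehicle and 45.3, 44.4 and 50.6 with PGE2, so the groups overlapped through the third vehicle library.

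Summed over 16 glycolytic enzymes from hexokinase to lactate dehydrogenase, without Gapdh, the level was 5067, 4505 and 4868 FPKM in the vehicle libraries and 5656, 5802 and 5714 FPKM in the PGE2 libraries. These sums did not overlap between the groups. They were 1.14%, 1.06% and 1.07% of all annotated FPKM with vehicle and 1.31%, 1.28% and 1.19% with PGE2, which did not overlap either. The second vehicle library was lowest in the summed level. It was the lowest of its group for 23 of the 38 genes, and the first vehicle library was the highest for 20.

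Pyruvate entry showed no common direction, with 4 of 7 genes at a higher mean and 3 at a lower one and a median log2 change of 0.05. Pdha1, a core subunit of pyruvate dehydrogenase and the most abundant of the group, was at 56.6, 55.1 and 59.3 FPKM with vehicle and 50.5, 53.3 and 51.2 FPKM with PGE2. All 3 PGE2 libraries were lower, by a log2 change of -0.14 (limma adjusted p = 0.512). Pdk1, a kinase that inactivates the complex, was at 17.8, 19.0 and 19.6 FPKM with vehicle and 22.4, 23.3 and 20.1 with PGE2. Those groups did not overlap, with a log2 change of 0.21 (SE 0.09, unadjusted p = 0.0495, limma adjusted p = 0.381).

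The related kinase Pdk3 was at 13.5, 14.6 and 15.7 FPKM with vehicle and 15.9, 17.4 and 15.7 with PGE2, a log2 change of 0.15, and the groups were separated only beyond the third digit. Pdk2 had a log2 change of -0.02 and the phosphatase Pdp1, which reactivates the complex, 0.05. The mitochondrial pyruvate carrier is built from Mpc1 and Mpc2. Mpc2 was at 17.0, 19.5 and 21.7 FPKM with vehicle and 16.8, 18.0 and 22.1 with PGE2, a log2 change of -0.03. Mpc1 was at 17.3, 2.91 and 4.85 FPKM with vehicle and 26.7, 5.39 and 5.92 with PGE2, so that the first library of each group was far above the others. Its log2 change of 0.52 had an SE of 0.71. In the coverage of Mpc1, scaled by depth, the first library did not stand above the others, at 2.65, 2.43 and 3.37 with vehicle and 2.58, 2.35 and 3.39 with PGE2, a log2 change of -0.02. The Mpc2 to Mpc1 ratio overlapped between the groups.

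In the pentose phosphate branch, 6 of 7 genes had a lower mean with PGE2, where 6863 of all 12113 genes tested had one. The median log2 change was -0.07, beside -0.03 over all genes tested, and the groups overlapped for all 7. Rpe, the epimerase that feeds ribulose phosphate into the non-oxidative arm, had the largest change. It was at 15.4, 17.4 and 19.8 FPKM with vehicle and 13.6, 13.7 and 15.6 with PGE2, a log2 change of -0.27 (SE 0.11, unadjusted p = 0.0438, limma adjusted p = 0.363). Tkt, the transketolase that links the branch back to glycolysis and the highest gene of the branch by FPKM, was at 139, 122 and 111 FPKM with vehicle and 110, 113 and 103 with PGE2, a log2 change of -0.19. Rpia, the ribose phosphate isomerase, also had a log2 change of -0.19. The enzymes of the oxidative arm that make NADPH, G6pdx and Pgd, had log2 changes of -0.07 and 0.03. Pgls, the lactonase between them, had -0.07, and the transaldolase Taldo1 had -0.04. Summed over the 7 genes, the level was 442, 399 and 378 FPKM with vehicle and 363, 388 and 380 FPKM with PGE2, groups that overlapped.

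**Figure D4:**
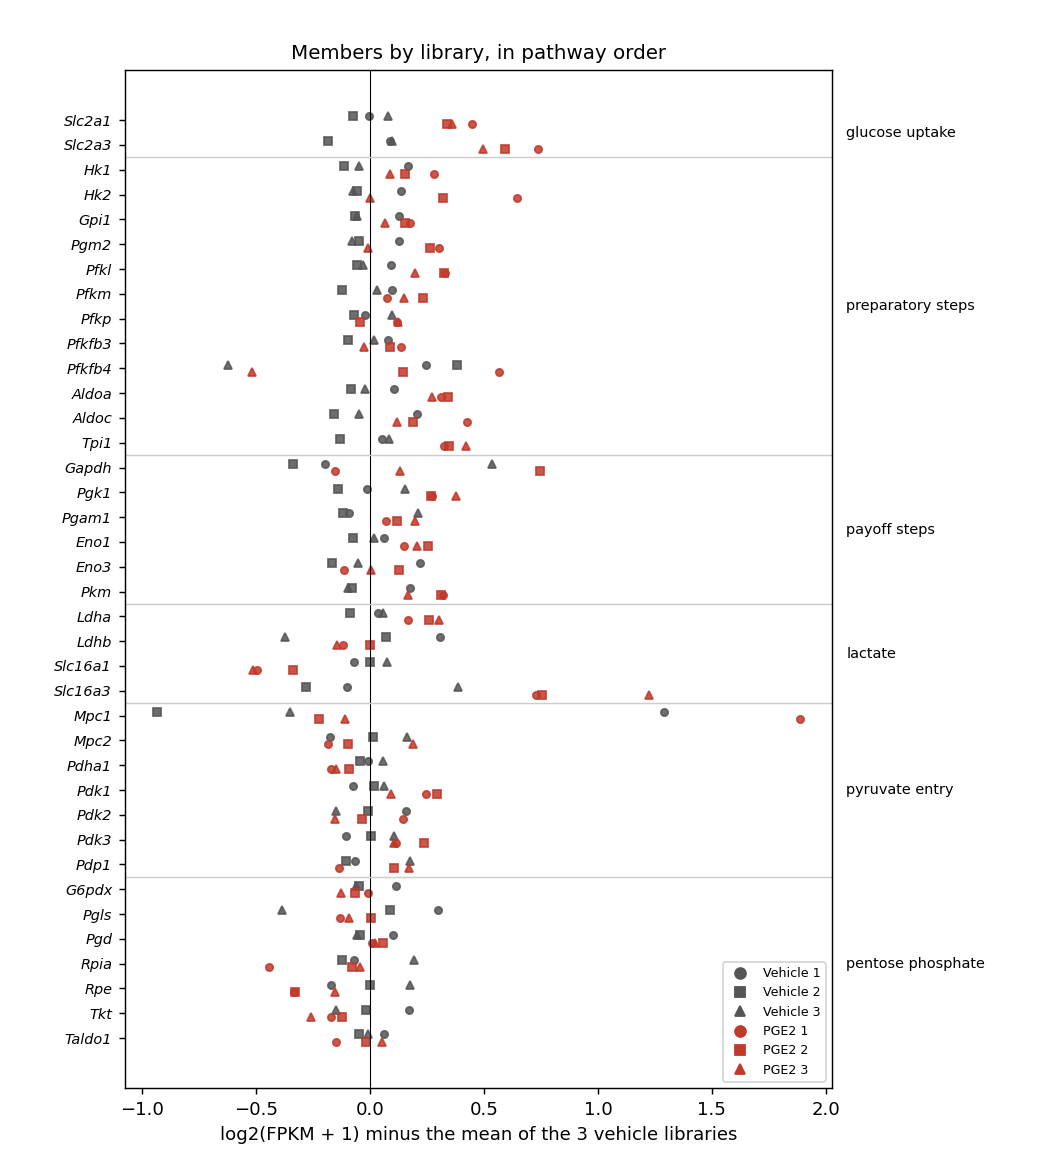
Level of each of the 38 genes in each of the 6 libraries, as log2(FPKM + 1) minus the mean of the 3 vehicle libraries, in pathway order, with vehicle libraries in grey and PGE2 libraries in red and a marker shape for each replicate number. Red points lie mostly right of 0 in the preparatory and payoff steps and mostly left of it in the pentose phosphate branch, and replicate 1 of Mpc1 lies far right in both groups.

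Among other genes of the same pathways, 29 of 51 listed reached 1 FPKM. Of the 29, 7 were higher on average with PGE2, beside 43.3% of all genes tested, and 22 lower, with a median log2 change of -0.08. In either direction 0 were called, with or without the replicate block. An unadjusted limma p under 0.05 was reached by 2 with a higher level and 3 with a lower one, beside 5.46% and 7.59% of all genes tested. The phosphoribosyl pyrophosphate synthetases, which use ribose phosphate for nucleotide synthesis, were lower. Prps2 went from 22.9 ± 1.90 to 17.5 ± 0.243 FPKM (log2 change -0.37, limma adjusted p = 0.123) and Prps1 from 40.6 ± 1.39 to 35.2 ± 1.76 FPKM (log2 change -0.20, limma adjusted p = 0.348, SD, n = 3 each). Rbks, the ribokinase, was higher, at 5.85 ± 0.588 and 7.82 ± 0.674 FPKM (SD, n = 3 each), a log2 change of 0.37 (limma adjusted p = 0.205). Ldhd, the mitochondrial dehydrogenase of D-lactate, was at 3.09 ± 0.919 and 1.70 ± 0.422 FPKM (SD, n = 3 each), a log2 change of -0.59 (limma adjusted p = 0.265). By coverage the log2 change of Ldhd was -0.31 (limma adjusted p = 0.535). Eno1b, an enolase copy close to Eno1 in sequence, had a log2 change of 0.18 (limma adjusted p = 0.408).

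The spread between libraries varied widely among the 38 genes. The coefficient of variation between libraries of a group had a median of 9.63% over the 38 genes with vehicle and 6.36% with PGE2. It ranged from 3.68% (Pdha1) to 93.5% (Mpc1) with vehicle and from 1.81% (Pgd) to 95.8% (Mpc1) with PGE2. It was above 20% for 6 genes with vehicle and 5 with PGE2. Txnip, which restrains glucose uptake and responds to glucose, was at 109, 86.7 and 89.0 FPKM with vehicle and 106, 91.0 and 85.6 with PGE2, a log2 change of -0.01 (limma adjusted p = 0.987).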

How the data were processed

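The 6 libraries were compared as 3 with Vehicle (DMSO) against 3 with PGE2, grouped and numbered by their titles. Per the labels' protocols, sequencing libraries came from a kit for stranded mRNA. The submitters' processing notes list Trim Galore, HISAT2 and the build mm10. Tool versions, the annotation and the quantifying program were not given in the sources used here. Per the file headers, each table lists positions, TPM, FPKM and coverage. FPKM, deposited by the authors, adjusts for transcript length and library size. Coverage, also deposited, is a signal of mean depth per base. The deposited TPM was treated as a score and not used, because assembled loci and annotated genes are both listed. IDs listed more than once in a library (21 to 27 per library) were summed.

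The table holds no counts, so limma 3.58.1 (R 4.3.3) with a prior variance that follows the mean level was fitted to log2(FPKM + 1) of the 12113 annotated genes averaging 1 FPKM or more, two-sided, with Benjamini-Hochberg adjustment over all of them and a threshold of 0.05. A fold change on this scale understates the change of low genes. Depth in gigabases is the ratio of coverage to FPKM in genes with a single transcript. Same-numbered libraries deviated together from their group means (correlations 0.2269, 0.3119 and 0.5287 over 12113 genes). Of the differently numbered pairs, the second vehicle with the first PGE2 library gave 0.271, above the first same-numbered pair. The first vehicle with the second PGE2 library gave 0.1487, and the others were negative. The numbers of the titles were taken to pair the libraries, which is uncertain for the first and second. The fit with that block is given where it changed a call, and also for Slc16a1 and Tpi1. Alternatives were another pseudocount, other filters, coverage, 3 scalings, another variance model, each library left out, and, chosen after seeing the data, assembled loci and near-identical copies. Copies were found by 50-base words shared with the longest coding transcript (GENCODE M21, mm10). The fit was also run on simulated data with independent libraries, which cannot test the effect of deviations shared between libraries. No pair of libraries held identical values.

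The genes, the lists and the tests were chosen with earlier results of these data known. All 39 genes are accounted for. Values in every library are given for genes with an unadjusted p under 0.05, the highest gene of each step and genes of the paralog ratios. Other pathway genes were named by an unadjusted p under 0.05, the 6 smallest p, or the highest level. Txnip and Pdk3 were added after their values were seen.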

Additional observations from a re-analysis of the deposited data

How the results depend on the processing

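The median log2 change of the 38 genes was 0.14 and lay between 0.08 and 0.19 under all settings run, and 27 of them kept their sign throughout. Of all genes tested, 69 were called higher and 29 lower. With the replicate block, to which the text refers, the counts were 215 and 180, and 2 of the 38 genes were called higher, with no other call among the 38 changed. Genes above 0 in at least 1 library gave 33 and 12, coverage 112 and 47, and leaving out a library 16 to 53 and 4 to 16. Equal sums gave 13 lower and a constant prior variance 16 lower. Assembled loci gave 1 of the 38 called higher, Gapdh. Leaving out a library left 0 of the 38 called. For the paralog ratios, the values that follow are log2 differences between the groups. Slc2a3 to Slc2a1 gave 0.12 by coverage and 0.050 by loci, Eno3 to Eno1 -0.33 by coverage, and Slc16a3 to Slc16a1 1.07 by loci.

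The other 11 genes changed sign under at least 1 setting. With a library left out, the ranges were -0.25 to 0.35 (Pfkfb4), -0.012 to 0.51 (Gapdh, lowest without the second PGE2 library), -0.078 to 0.12 (Eno3), -0.28 to 0.063 (Ldhb), -0.17 to 1.16 (Mpc1), -0.14 to 0.049 (Mpc2), -0.096 to 0.064 (Pdk2), -0.016 to 0.14 (Pdp1), -0.27 to 0.075 (Pgls), -0.0013 to 0.078 (Pgd) and -0.084 to 0.017 (Taldo1). Coverage gave -0.10 for Eno3, -0.017 for Mpc1, 0.0016 for Pdk2 and -0.0049 for Pdp1. Equal sums gave -0.035 for Eno3 and -0.014 for Pgd. Equal medians gave 0.014 for Mpc2, 0.031 for Pdk2 and 0.0078 for Taldo1. Quantile normalization gave 0.027 for Pdk2. Assembled loci gave -0.087 for Eno3, -0.44 for Mpc1 and 0.0053 for Pdk2. The cause was not tested. Pdk2, Pdp1 and Pfkfb4 were not tested at a minimum of 5 FPKM. With 3 libraries a group, changes within the spread between libraries were not detectable.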
